A study of Homo sapiens with 8 samples.

Results

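The 9 genes described here govern whether a cell commits to apoptosis. They are BCL2L1 and MCL1, which hold mitochondria intact, BAX and BAK1, which open the mitochondrial outer membrane, BID and BCL2L11, which start that opening, the initiator caspases CASP8 and CASP9, and the caspase inhibitor XIAP. They were chosen by gene symbol, by a rule that used no values but was set with earlier results of these data known. All 9 symbols were found among the 17076 genes that the expression tables list.

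Messenger RNA was sequenced from Huh7, an established human hepatocellular carcinoma line, after transfection. Of the 4 groups of 2 libraries each, siControl received a control siRNA, siUPF1 an siRNA against UPF1, MYC the control MYC vector, and MYC-UPF1 a vector that overexpresses MYC-tagged UPF1. UPF1 is an RNA helicase at the centre of nonsense-mediated mRNA decay (NMD), the pathway that degrades transcripts with premature stop codons and a set of normal ones. As a model the line carries a mutant p53, a transcription factor known to act on BAX and several other genes of this family. Cells that took up no siRNA or vector were not separated from those that did, and the labels do not say whether the 2 libraries of a group came from separate cultures. P-values therefore measure the spread between 2 libraries, which may be technical.

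In the mitochondrial route to apoptosis, BAX and BAK1 proteins assemble into pores that release cytochrome c. BCL2L1 (whose long form is BCL-xL) and MCL1 bind and restrain them, and BH3-only proteins such as BIM, the product of BCL2L11, and BID relieve that restraint or activate the pore formers directly. Released cytochrome c joins APAF1 to activate caspase-9, while death receptors activate caspase-8, which cleaves BID and so connects both routes. XIAP binds and blocks caspase-9 and the executioner caspases downstream of it. Hepatocytes are known to depend on BCL-xL and MCL1 for survival. Most of this control is exerted on proteins by binding, cleavage and relocation, none of which is visible in mRNA levels.

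The 6 BCL2 family members share the BH3 motif, the short helix by which they bind each other. The core of that motif, a leucine, then any 3 residues, then glycine and aspartate, was searched for in the coding sequence of the reference transcript of each, and each held 1 match. The 24 bases from the leucine codon onward are shown because they are the element common to pore formers, restrainers and activators alike, with the codons of leucine, glycine and aspartate in capitals. They were read 5′ to 3′ on the gene's own strand from GRCh37, the assembly also known as hg19 that the submitters used. The positions are chr20:30309731-30309754 (minus strand) for BCL2L1, chr1:150551347-150551370 (minus) for MCL1, chr19:49459044-49459067 (plus) for BAX, chr6:33543170-33543193 (minus) for BAK1, chr22:18222187-18222210 (minus) for BID and chr2:111907680-111907703 (plus) for BCL2L11.
BCL2L1: CTGagggaggcaGGCGACgagttt
MCL1: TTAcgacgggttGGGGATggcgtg
BAX: CTCaagcgcatcGGGGACgaactg
BAK1: CTCgccatcatcGGGGACgacatc
BID: CTCgcccaggtcGGGGACagcatg
BCL2L11: TTGcggcgtattGGAGACgagttt

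For the genes that passed the unadjusted test after UPF1 depletion, the first 60 coding bases are shown with the start codon in capitals, because base composition comes back beside the results. They lie in exon 2 of each reference transcript, at chr6:33545322-33545381 (minus strand, 71.7% G and C) for BAK1, chr20:30309962-30310021 (minus, 50% G and C) for BCL2L1 and chrX:123019513-123019572 (plus, 33.3% G and C) for XIAP. Base composition beside the results is that of the whole reference transcript, not of these 60 bases. CASP9, which did not pass, also had 71.7% G and C over its first 60 coding bases.
BAK1: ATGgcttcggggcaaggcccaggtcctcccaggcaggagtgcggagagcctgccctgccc
BCL2L1: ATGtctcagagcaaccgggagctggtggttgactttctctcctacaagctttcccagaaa
XIAP: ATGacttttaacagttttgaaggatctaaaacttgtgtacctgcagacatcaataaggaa

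Values are FPKM, fragments per kilobase of transcript scaled to the size of the library, with 1 value per gene and library. FPKM is scaled to length, so levels of different genes can be set side by side, but it does not separate the isoforms of a gene. That limit touches BCL2L1, MCL1 and CASP9, whose alternative splice forms are known to have opposing activities, and BCL2L11, whose forms differ in potency. Summed FPKM was 403902 to 455592 per library, and the sequencing depth is unknown. UPF1, the targeted gene, measured 44.5 and 47.4 FPKM in siControl against 20.7 and 21.9 in siUPF1. It measured 45.1 and 57.4 in MYC against 2835 and 2484 in MYC-UPF1, so the siUPF1 and MYC-UPF1 libraries matched their labels. The siControl and MYC libraries overlapped in UPF1, so its level cannot tell these apart. All 8 hepatocyte markers examined were listed, with summed levels of 20200 to 23637 FPKM. Of 6 markers of blood, endothelial, stromal and muscle cells, 3 were listed, with a summed level of 3.84 to 4.89 FPKM. In a bulk sample, fewer expressing cells and less RNA per cell cannot be told apart.

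The 9 genes spanned a wide range of levels. BCL2L1 was the most abundant, with a mean of 65.2 FPKM over the 8 libraries, above 94.8% of all listed genes. BAX followed at 50.5 and MCL1 at 49.8, and these were not separated, since BAX exceeded MCL1 in 3 of 8 libraries. BID came next at 19.6 FPKM and BAK1 at 13.0. BCL2L11 at 6.23, CASP9 at 5.17, CASP8 at 5.06 and XIAP at 3.30 closed the order, with XIAP above 46.5% of listed genes. Ranges over the 8 libraries did not overlap between MCL1 and BID, between BID and BAK1 or between BAK1 and BCL2L11. They overlapped for every other pair of neighbours, and CASP9 exceeded CASP8 in 4 of 8 libraries. A restraining gene thus headed the order, ahead of both pore-forming genes, while the initiator caspases and XIAP were its last members.

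**Figure D1:**
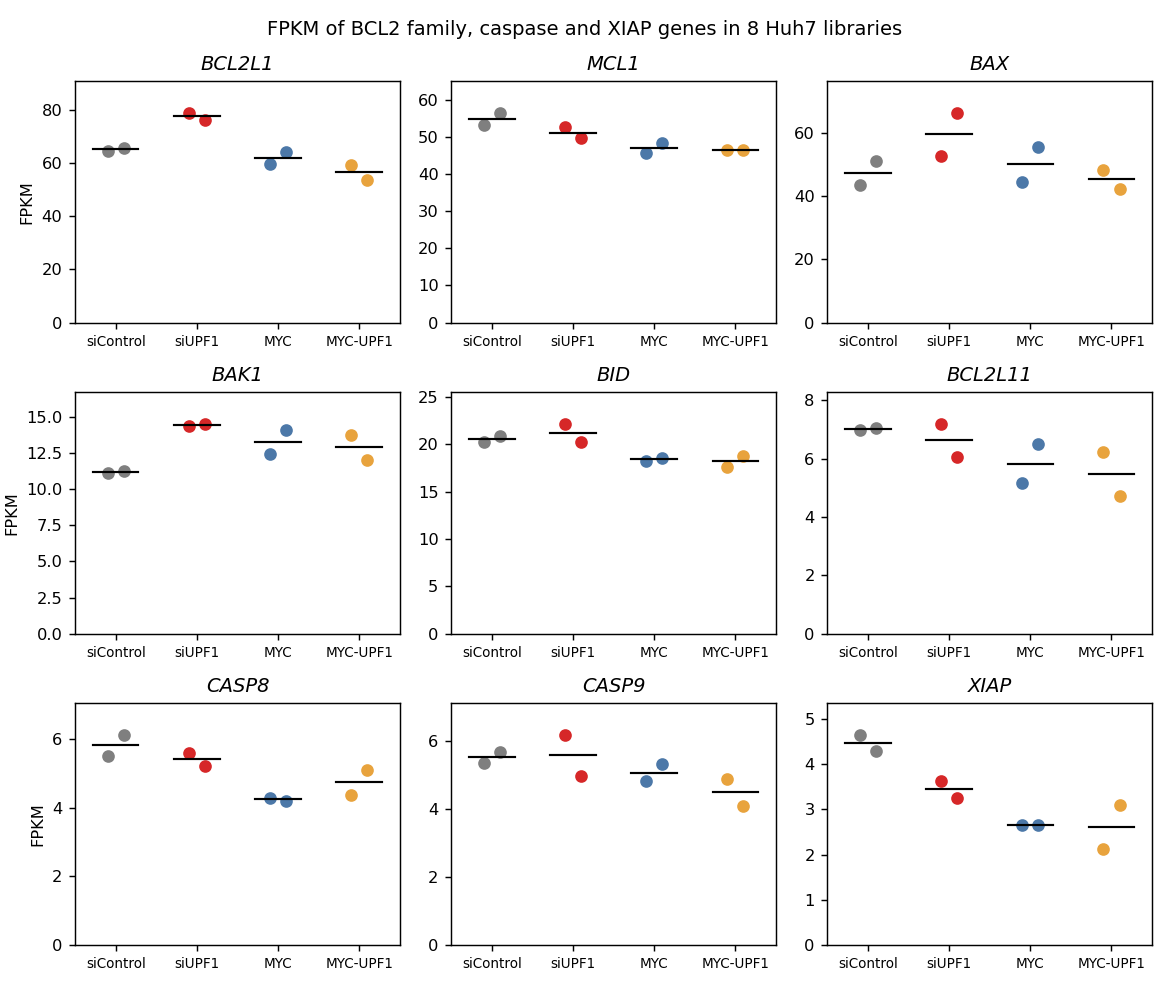
FPKM (vertical axis, from 0) of each of the 9 genes in the siControl, siUPF1, MYC and MYC-UPF1 groups, with 1 point per library and a bar at the mean of the 2 libraries. BAK1 and BCL2L1 have both siUPF1 points above both siControl points, and XIAP sits lower in both siUPF1 libraries and lower again in both MYC libraries.

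Depletion of UPF1 raised the pore former BAK1 by 29.2% and the restrainer BCL2L1 by 18.9%, and lowered the caspase inhibitor XIAP by 22.9%, each at an unadjusted p under 0.05. The other 6 genes did not pass. Thus 3 of 9 genes passed, against 21.5% of all 13535 genes tested, with 2 higher, against 16% of all genes, and 1 lower, against 5.51%. After Benjamini-Hochberg adjustment over all genes in limma, 0 of 9 passed, against 0.0369% of all genes. The siUPF1 and siControl libraries did not overlap for 5 of the 9, against 56% of all genes. The median change of the 9 was 0.0080 on the log2(FPKM + 1) scale, beside 0.057 for all genes tested. The 2162 higher and 746 lower calls among all genes were 1417 and 1408 after quantile normalization, 1602 and 1271 after median centring, and 1497 and 1526 with the trend against GC content and length removed.

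Among the pore formers, BAK1 measured 11.1 and 11.3 FPKM in siControl and 14.4 and 14.5 in siUPF1. Both siUPF1 libraries lay above both controls, with little spread within either group. The change was 0.34 ± 0.0878 (SE, log2 scale), with an unadjusted p of 0.00595 and an adjusted p of 0.117 in limma. BAX, the other pore former, measured 43.6 and 51.1 FPKM in siControl and 52.6 and 66.4 in siUPF1. Its groups did not overlap either, but the libraries within each differed more. The log2 difference of 0.32 ± 0.138 (SE) had an unadjusted p of 0.0547 and an adjusted p of 0.242 in limma. Which library was left out set its size: the difference was 0.48 without siUPF1 replicate 1 and 0.15 without siUPF1 replicate 2.

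Of the restrainers, BCL2L1 measured 64.6 and 65.7 FPKM in siControl and 78.9 and 76.0 in siUPF1, so the groups stood apart by several times the spread within them. Its change was 0.25 ± 0.0887 (SE, log2 scale), with an unadjusted p of 0.0275 and an adjusted p of 0.187 in limma. MCL1, whose protein and mRNA are both known for rapid turnover, measured 53.1 and 56.5 FPKM in siControl and 52.6 and 49.6 in siUPF1. The groups did not overlap, by a margin smaller than the spread within either, and the log2 difference of -0.10 had a 95% interval from -0.32 to 0.12. BCL2L1, a restrainer, and BAK1, a pore former, both passed as higher at the unadjusted threshold, as did 16% of all genes. Neither passed after adjustment.

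The BH3-only genes overlapped between the groups. BID measured 20.3 and 20.9 FPKM in siControl and 22.2 and 20.2 in siUPF1, a log2 difference of 0.040 (95% interval -0.18 to 0.26). BCL2L11 measured 6.97 and 7.04 FPKM in siControl and 7.20 and 6.05 in siUPF1, a log2 difference of -0.075 (interval -0.33 to 0.18). These intervals leave room for differences about as large as those of BCL2L1.

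The initiator caspases likewise overlapped. CASP8, the caspase of the death receptor route, measured 5.51 and 6.13 FPKM in siControl and 5.61 and 5.22 in siUPF1, a log2 difference of -0.088 (95% interval -0.32 to 0.15). CASP9, the caspase of the mitochondrial route, measured 5.37 and 5.68 FPKM in siControl and 6.19 and 4.98 in siUPF1, with both siControl values between the siUPF1 values and a log2 difference of 0.0080 (interval -0.26 to 0.28). XIAP, which blocks caspase-9, measured 4.65 and 4.29 FPKM in siControl and 3.64 and 3.26 in siUPF1. Both siUPF1 libraries lay below both controls. The change was -0.30 ± 0.0992 (SE, log2 scale), with an unadjusted p of 0.0195 and an adjusted p of 0.166 in limma, and it is an understatement at this low level because of the 1 FPKM added before the logarithm.

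The calls changed with the library left out. Without siControl replicate 1, 0 of 9 genes passed the unadjusted threshold, with BAK1 at 0.34 (unadjusted p = 0.0737 in limma), BCL2L1 at 0.23 (unadjusted p = 0.217) and XIAP at -0.25 (unadjusted p = 0.168). Without siControl replicate 2, BAX was the single gene that passed, at 0.43 (unadjusted p = 0.0314), while BAK1 at 0.35 (unadjusted p = 0.0639), BCL2L1 at 0.26 (unadjusted p = 0.175) and XIAP at -0.35 (unadjusted p = 0.0605) did not. Without siUPF1 replicate 1, 4 genes passed, and BAX, BAK1 and XIAP passed after adjustment, but so did 4546 of all genes, against 5 with all libraries. Without siUPF1 replicate 2, 3 passed, with BAK1 also after adjustment among 1269 of all genes. Leaving out a library kept the direction of these 4 genes in every case.

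**Figure D2:**
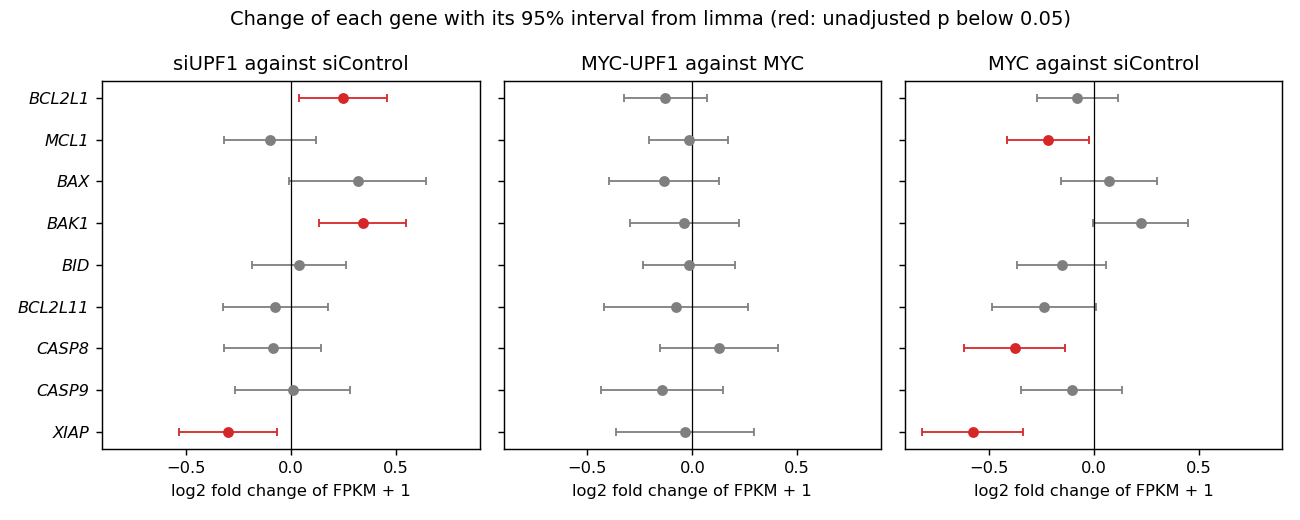
Log2 fold change of FPKM + 1 (horizontal axis) of each of the 9 genes in 3 comparisons, as points with 95% intervals from limma, red where the unadjusted p is below 0.05. After UPF1 depletion, BCL2L1 and BAK1 lie to the right of 0 and XIAP to the left, no gene is red after overexpression, and MCL1, CASP8 and XIAP lie to the left of 0 in MYC against siControl.

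Base composition moved with these changes. The reference transcripts of BAX (60.8% G and C), BAK1 (58.6%), BCL2L1 (56.6%) and CASP9 (52.3%) lie above the median of all genes, 48.3%, and all 4 had a positive log2 difference after depletion. BID (48.0%), BCL2L11 (45.5%), MCL1 (45.1%), CASP8 (41.9%) and XIAP (38.9%) lie below it, and 1 of these 5, BID, was positive. The values of CASP9 (0.0080) and BID (0.040) were near 0, and both turned negative under quantile normalization, CASP9 also under median centring. The same slope ran through the transcriptome: with genes split into 10 equal bins by GC content, the median log2 difference after depletion went from -0.11 in the lowest bin to 0.26 in the highest, with a Spearman correlation of 0.561 across 12701 genes, which are not independent replicates. In the bin that holds BAK1 and BAX the median was 0.20 and 35.1% of genes passed as higher. In the bin that holds BCL2L1 the median was 0.14 and 25.8% passed as higher, and in that of XIAP the median was -0.065 and 9.76% passed as lower. After overexpression the slope ran the other way, with a Spearman correlation of -0.45 across 12478 genes.

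With each library's trend against GC content and length removed, an alternative setting, the change of XIAP was -0.25 ± 0.0749 (SE; unadjusted p = 0.0131, adjusted p = 0.116 in limma). That of BAK1 was 0.16 (unadjusted p = 0.0470, adjusted p = 0.204), that of BCL2L1 0.089 (unadjusted p = 0.246) and that of BAX 0.14 (unadjusted p = 0.191). XIAP and BAK1 therefore still passed the unadjusted threshold and BCL2L1 did not, and 6 of the 9 differences were smaller in size than before. What part base composition, or the preparation of the libraries, has in these differences was not tested.

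**Figure D3:**
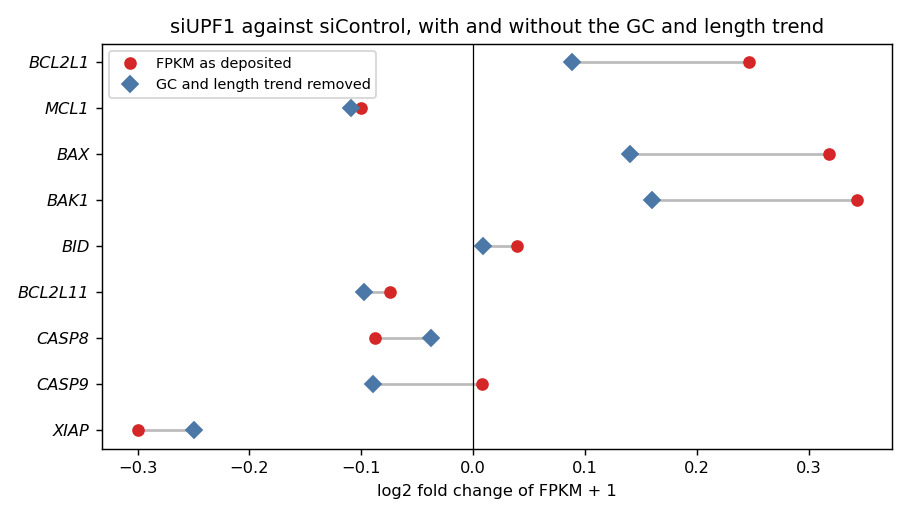
Log2 fold change of FPKM + 1 (horizontal axis) after UPF1 depletion for the 9 genes, with FPKM as deposited (red circles) and with the trend against transcript GC content and length removed in each library (blue diamonds). BCL2L1 moves from 0.25 to 0.089, BAX from 0.32 to 0.14 and BAK1 from 0.34 to 0.16, while XIAP moves from -0.30 to -0.25.

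Because UPF1 acts through NMD, the annotation was examined for NMD transcripts, that is, isoforms classed as likely NMD substrates. GENCODE lists at least 1 for BCL2L1 (1 isoform), BAX (2), BCL2L11 (8), CASP8 (3) and CASP9 (2) and none for MCL1, BAK1, BID and XIAP, so 5 of 9 genes had one, beside 38.5% of all matched genes. Of the genes that passed after depletion, BCL2L1 has such an isoform, and BAK1 and XIAP do not. Gene-level FPKM cannot show whether an NMD isoform itself changed.

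Overexpression of UPF1 gave no detectable change in the 9 genes with 2 libraries per group and no block. In limma 0 of 9 then passed the unadjusted threshold, against 1.43% of all 13251 genes tested, and 0 passed after adjustment. A crossed replicate block was added after seeing the data. Under it BCL2L1 (unadjusted p = 0.0264 in limma) and BAX (unadjusted p = 0.0285) passed along with 1227 of all genes, against 189 without it. The result for BAX also depended on the library left out, as given below. MYC-UPF1 and MYC libraries did not overlap for 2 of the 9, against 20.7% of all genes. Log2 differences ran from -0.15 for CASP9 to 0.13 for CASP8, with a median of -0.037 beside -0.014 for all genes.

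BCL2L1 measured 59.4 and 64.0 FPKM in MYC and 59.2 and 53.6 in MYC-UPF1, so the groups were separated by a narrow margin, with a log2 difference of -0.13 (95% interval -0.33 to 0.071). CASP8 measured 4.30 and 4.20 FPKM in MYC and 4.39 and 5.09 in MYC-UPF1, also just separated, with a log2 difference of 0.13 (interval -0.16 to 0.41). The remaining 7 genes overlapped between the groups. BAK1 measured 12.4 and 14.1 FPKM in MYC and 13.8 and 12.0 in MYC-UPF1, a log2 difference of -0.037 (interval -0.30 to 0.22).

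BAX measured 44.5 and 55.5 FPKM in MYC and 48.2 and 42.3 in MYC-UPF1, with a log2 difference of -0.14 (95% interval -0.40 to 0.13). Without MYC replicate 1 this difference was -0.29 and passed the unadjusted threshold (unadjusted p = 0.0163, adjusted p = 0.800 in limma), and without MYC replicate 2 it was 0.020. For XIAP, 2.66 and 2.67 FPKM in MYC stood against 2.13 and 3.09 in MYC-UPF1, with both MYC values between the MYC-UPF1 values and an interval of the log2 difference from -0.36 to 0.30. MCL1 at 45.5 and 48.4 FPKM in MYC and 46.4 in both MYC-UPF1 libraries had an interval from -0.21 to 0.17. The interval of XIAP includes its value after depletion, -0.30.

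BID measured 18.3 and 18.6 FPKM in MYC and 17.6 and 18.8 in MYC-UPF1, BCL2L11 5.16 and 6.49 against 6.21 and 4.73, and CASP9 4.81 and 5.32 against 4.88 and 4.10. The groups overlapped for each of these.

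The change after depletion minus that after overexpression was tested in a fit over all 8 libraries, since these comparisons share no library. It passed the unadjusted threshold for 3 of 9 genes, against 15.2% of 13412 genes tested, all 3 with a positive value, against 11.8%, and 0 with a negative one, against 3.4%. The 1585 positive and 456 negative calls among all genes were 1024 and 907 after quantile normalization, 1107 and 776 after median centring, and 1029 and 1040 with the GC and length trend removed. BAX differed by 0.45 ± 0.202 (SE, log2; unadjusted p = 0.0482, adjusted p = 0.324 in limma), BAK1 by 0.38 ± 0.143 (unadjusted p = 0.0242, adjusted p = 0.264) and BCL2L1 by 0.37 ± 0.121 (unadjusted p = 0.0113, adjusted p = 0.221). For XIAP the difference of -0.27 did not pass (unadjusted p = 0.185 in limma, 95% interval -0.68 to 0.15), so its change after depletion is not shown to differ from that after overexpression. Without MYC-UPF1 replicate 2, 0 of 9 genes passed, with BCL2L1 at 0.30 (unadjusted p = 0.0658). BAX did not pass without siControl replicate 1, siUPF1 replicate 2, MYC replicate 2 or MYC-UPF1 replicate 2, where it was 0.34, 0.29, 0.30 and 0.36. It also missed the threshold with no FPKM minimum (unadjusted p = 0.0743), quantile normalization (unadjusted p = 0.0638), median centring (unadjusted p = 0.0785) and eBayes without the trend (unadjusted p = 0.0575), and passed in 8 of 17 alternatives in all. BAK1 did not pass without either siControl library, MYC replicate 2 or MYC-UPF1 replicate 2, where it ran from 0.29 to 0.39, or with the replicate number as a block (unadjusted p = 0.0759). XIAP passed only without MYC-UPF1 replicate 1, at -0.46 (unadjusted p = 0.0216). With the GC and length trend removed, 0 of 9 genes passed.

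The control groups themselves differed. Comparing MYC with siControl, XIAP fell by 40.4% and CASP8 by 27.0% after adjustment, and MCL1 fell by 14.3% at the unadjusted threshold. Thus 3 of 9 genes passed, against 40.9% of 13359 genes tested, with 3 lower, against 25.6%, and 0 higher, against 15.4%, and 2 passed after adjustment, against 29.1%. The groups did not overlap for 8 of the 9, against 66.9% of all genes: 7 were lower in both MYC libraries than in both siControl libraries, BAK1 was higher, by 18.5%, and BAX overlapped. BCL2L1, at -0.078, was 0.0052 under median centring, but -0.16 with the GC and length trend removed, where it passed (adjusted p = 0.0301 in limma), as did BAK1 at 0.12 (unadjusted p = 0.0487, adjusted p = 0.121). The 2052 higher and 3416 lower calls among all genes were 2763 and 2709 after quantile normalization, 3180 and 2276 after median centring, and 2536 and 2552 with that trend removed. The median log2 difference of the 9 was -0.15, beside -0.057 for all genes.

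The 2.66 and 2.67 FPKM of XIAP in MYC lay below the 4.65 and 4.29 of siControl, and also below the siUPF1 values. Its log2 difference between the control groups was -0.58 ± 0.116 (SE; adjusted p = 0.00123 in limma) and -0.41 (adjusted p = 0.00964) with the GC and length trend removed. For CASP8 it was -0.38 ± 0.115 (SE; adjusted p = 0.0194), but -0.16 (adjusted p = 0.103) with the trend removed and -0.31 (unadjusted p = 0.114) without siControl replicate 2. MCL1 had -0.22 (unadjusted p = 0.0309, adjusted p = 0.0861 in limma) and kept that call without MYC replicate 2 but lost it without each of the other 3 libraries, where it ran from -0.26 to -0.18. The control groups differ in what was transfected and may differ in handling, which cannot be told apart. The medians again climbed with GC content (Spearman correlation 0.587 across 12554 genes). In the GC bins of XIAP, CASP8 and MCL1, 49.9%, 42.6% and 31.9% of genes passed as lower. Because the siControl libraries serve in both this comparison and that of depletion, their values enter both, as those of the MYC libraries enter this comparison and that of overexpression.

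BAX is a pore former and BCL2L1 a restrainer, and only their mRNA is compared, without BAK1 or MCL1 and with isoforms of BCL2L1 pooled. The ratio of BAX to BCL2L1 FPKM was taken within each library. It was 0.675 and 0.778 in siControl, 0.666 and 0.873 in siUPF1, 0.750 and 0.867 in MYC, and 0.813 and 0.790 in MYC-UPF1. The groups overlapped in both comparisons, and BCL2L1 exceeded BAX in all 8 libraries.

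Beyond the 9 genes, 39 other genes of the apoptosis pathway were listed, of which 34 were in the tables and 31 passed the FPKM minimum. After depletion 9 of 31 passed the unadjusted threshold, 8 higher and 1 lower, beside the 16% and 5.51% of all genes given above, and 0 passed after adjustment. Their median log2 difference was 0.12, beside 0.057 for all genes, and 26 of 31 were positive, beside 8247 of 13535 over all genes. The number called was 4 without siControl replicate 1 and 6 without siControl replicate 2, with no FPKM minimum, at 5 FPKM or under median centring, and it was 13 without siUPF1 replicate 1. They are described by role, each value being a log2 difference after depletion. Each count by role stands beside 21.5% of all genes passing in either direction, 16% as higher and 5.51% as lower.

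Of the BCL2 relatives, BCL2L2 (BCL-w, a restrainer) rose by 0.49 and BOK, a further pore former, by 0.37. Reads of BCL2L2 are uncertain, because the gene overlaps a readthrough transcript with PABPN1. Among the BH3-only genes 3 of 4 tested passed, all higher: BMF by 0.48, BAD by 0.35 and PMAIP1 (NOXA, a partner of MCL1) by 0.31. The fourth, BBC3 (PUMA), had 0.014. Of 5 other caspases tested 1 passed: CASP6, an executioner, rose by 0.45.

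None of the 4 tested inhibitor-of-apoptosis relatives of XIAP passed. BIRC2 was at -0.18, while BIRC5 (0.19), NAIP (0.11) and BIRC6 (0.097) were positive. Among 6 genes of the apoptosome and of mitochondrial release, CYCS, which encodes cytochrome c, fell by 0.45 and the other 5 did not pass. TRADD, an adaptor of death receptors, rose by 0.36 as the single call among 7 tested genes of that arm. PARP1, a classical caspase substrate, rose by 0.25. For these other genes too, the adjusted p in limma was at least 0.0804.

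After overexpression 0 of the 31 passed, against 1.43% of all genes, 5 did not overlap between groups, against 20.7%, and the median was -0.048, beside -0.014. The difference between depletion and overexpression passed for 7 of them, against 15.2% of all genes, BCL2L2, BAD, CASP6, BOK, BMF and PARP1 with positive values and CYCS with a negative one. Between the control groups 12 of 31 passed, against 40.9% of all genes, 3 higher, against 15.4%, and 9 lower, against 25.6%, with 5 after adjustment, against 29.1%. Without siControl replicate 1 this count was 5 and without siControl replicate 2 it was 6. Among these were BIRC2 at -0.55 (adjusted p = 0.00194 in limma), CYCS at -0.49, PARP1 at 0.32 and VDAC2 at -0.28. XIAP and 2 of its 4 tested relatives, BIRC2 among them, passed as lower in MYC than in siControl, against 25.6% of all genes. The log2 differences of the 4 relatives ran from -0.55 to 0.20.

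Transfection can induce interferon genes, so a list of 12 such genes was read beside the results. Of these 8 were in the tables and 5 were tested. None passed after depletion, against 21.5% of all genes, or after overexpression, against 1.43%. Between the control groups 3 passed, against 40.9% of all genes. Of these 1 was higher, against 15.4%, and 2 were lower, against 25.6%. The summed level of the 8 genes in the tables was 26.6 to 34.9 FPKM per library. Whether this has a part in the differences of the 9 genes was not tested.

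For each gene that passed after depletion, the genes with the most similar profile over the 8 libraries were sought among 13104 tested genes, by the root mean square difference of log2(FPKM + 1) after each gene was centred on its mean. For BAK1 these were ARRDC1 (0.0200) and GPSM1 (0.0280), for BCL2L1 TARBP2 (0.0220) and FAM89A (0.0301), and for XIAP SIAH1 (0.0337) and ZNF680 (0.0564). The 1 FPKM added before the logarithm shrinks differences at low levels. GPSM1 had means of 0.578 FPKM in siControl and 1.05 in siUPF1, so its proportional change was larger than that of BAK1.

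On GRCh37 the genes lie at chr20:30252255-30311792 (BCL2L1, minus strand), chr1:150533371-150552214 (MCL1, minus), chr19:49458072-49465055 (BAX, plus), chr6:33540324-33548070 (BAK1, minus), chr22:18216904-18257536 (BID, minus), chr2:111876955-111926021 (BCL2L11, plus), chr2:202098166-202226559 (CASP8, plus), chr1:15817327-15853029 (CASP9, minus) and chrX:122993562-123047822 (XIAP, plus). Of the 9, 8 overlap another annotated gene, all but BAX. The library kit keeps strand, but whether strand was used in the quantification is not given in the sources used here, so reads of overlapping genes may not be fully separated.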

How the data were processed

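RNA of Huh7 cells in 4 groups of 2 libraries was made into strand-specific mRNA libraries and read as paired ends. Per the labels and the study's methods, the authors trimmed reads (Trimmomatic 0.38, checked with FastQC 0.11.7), aligned them to hg19 with HISAT2 2.1.0 and quantified them with StringTie 1.3.4d and NCBI annotation, and deposited FPKM per gene and library. The tables list 17076 genes, none at 0. The series tables and the single-library files held the same values (0 differences). Whole reads could not be recovered: among 1163 genes under 0.1 FPKM, at most 0.602% shared a common ratio between libraries (bins of 0.001 on the natural log scale), so depth is unknown, no interval for counting error is given and no count model was used. How genes were selected for the tables, and the strand setting, are not given in the sources used here.

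Groups were compared with limma 3.58.1 (R 4.3.3; lmFit, eBayes with trend) on log2(FPKM + 1), with a minimum mean of 0.5 FPKM over the libraries of the fit, each treated group with its own control and the difference over all 8 libraries. The study states a p of 0.05 without adjustment for its RNA-seq, so an unadjusted p of 0.05 is given beside a Benjamini-Hochberg adjusted p of 0.05 over all genes tested. An exact permutation test of 2 against 2 libraries cannot reach 0.05. The method was tested on simulated data.

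The 9 genes and all lists were chosen with earlier results of these data known. Genes named were the 9, UPF1, up to 10 pathway genes per comparison at an unadjusted p of 0.05, and the 2 nearest profiles of each gene called after depletion. BBC3 was named after its value was seen. Some items are not reported here. Annotation was GENCODE release 44 on GRCh37, matched by symbol for 16007 genes, with transcript GC content for 15528. Alternatives were a pseudocount of 0.1, no minimum or 5 FPKM, quantile normalization, median centring, removal of the GC and length trend (loess, span 0.5), eBayes without trend, a replicate block, all 8 libraries in a single fit and each library left out. A crossed replicate block was added after seeing the data. Python 3.11.15, pandas 2.3.3, numpy 2.4.6 and matplotlib 3.10.9 were used.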

Additional observations from a re-analysis of the deposited data

Results flagged for a closer look

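The changes after depletion and after overexpression of UPF1 differed for 3 of the 9 genes, against 15.2% of all genes. The test was of the difference itself, at an unadjusted p of 0.05 in limma, and 0 of 9 passed after adjustment. All 3 had a positive value, against 11.8% of all genes. The log2 difference was 0.37 for BCL2L1, 0.45 for BAX and 0.38 for BAK1. Both siUPF1 libraries lay above both siControl libraries for these genes, in a comparison where 56% of all genes did not overlap. MYC-UPF1 and MYC libraries overlapped for BAX and BAK1, while for BCL2L1 both MYC-UPF1 libraries lay below both MYC libraries. In that comparison 20.7% of all genes did not overlap. The 3 genes have the highest GC content of the 9, and with the GC and length trend removed none of them passed. What part base composition has in this was not tested.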

How the results depend on the processing

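Over all alternatives the 9 genes gave 507 values, of which 429 kept both direction and side of the unadjusted threshold, 30 lost a call, 17 gained one and 31 changed sign, none of them for a gene with a call. The number of the 9 called after depletion was 0 to 4 with a library left out, where a lone library is assumed to vary like the other group. After overexpression it was 0 to 1 with a library left out and 2 (BCL2L1 and BAX) under the crossed replicate block. For the difference it was 0 to 4 with a library left out and 0 once the trend with GC and length was removed. Between the control groups these numbers were 1 to 4 and 5.

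Signs changed as follows, in log2 values. Quantile normalization gave -0.014 for BID and -0.051 for CASP9 after depletion, 0.032 for MCL1 and 0.0091 for BID after overexpression, and -0.023 for BID and -0.050 for BCL2L11 in the difference. Median centring gave -0.031 for CASP9 after depletion, -0.044 for BCL2L11 in the difference and 0.0052 for BCL2L1 between the control groups. With the GC and length trend removed CASP9 had -0.089 after depletion, BAK1 0.016 after overexpression, BCL2L11 -0.018 in the difference and UPF1 -0.13 between the control groups. With each library left out, values spanned 0 for BID (-0.024 to 0.10), BCL2L11 (-0.18 to 0.034) and CASP9 (-0.12 to 0.14) after depletion, for MCL1 (-0.060 to 0.027), BAX (-0.29 to 0.020), BAK1 (-0.13 to 0.052), BID (-0.061 to 0.028), BCL2L11 (-0.24 to 0.087) and XIAP (-0.23 to 0.16) after overexpression, for BID (-0.0073 to 0.12) and BCL2L11 (-0.16 to 0.17) in the difference, and for BAX (-0.083 to 0.23) and UPF1 (-0.024 to 0.32) between the control groups. The cause of these changes was not tested.

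Libraries with the same replicate number did not deviate together: their deviations had a correlation of -0.12 for depletion and -0.57 for overexpression. MYC replicate 1 correlated more with MYC-UPF1 replicate 2 (0.9970) than with MYC replicate 2 (0.9945). Likewise, MYC replicate 2 correlated more with MYC-UPF1 replicate 1 (0.9964). Such values cannot show whether libraries were handled in pairs. With the replicate block 4 of 9 genes were called after depletion, BAX among them. The crossed pairing, added after seeing the data, called 3 after depletion. Among all genes, adjusted calls after depletion went from 5 to 437 with the trend removed, 368 in a single fit of 8 libraries, 316 at a minimum of 5 FPKM, 90 under the crossed block and 0 with no minimum, either rescaling or the block. They were 121 and 172 without siControl replicates 1 and 2, and 4546 and 1269 without siUPF1 replicates 1 and 2, and unadjusted calls, 2908 with all libraries, were 1443 to 5901 with a library left out. Unadjusted calls after overexpression went from 189 to 1227 under the crossed block, 415 with the trend removed, 409 with no minimum, 49 at 5 FPKM, 777 without MYC replicate 1 and 472 without MYC-UPF1 replicate 1. At 5 FPKM XIAP was not tested, nor were CASP8 and CASP9 for overexpression, and BAX was called after depletion (unadjusted p = 0.0325). With 2 libraries per group and unknown depth, small differences in genes of low FPKM were the least well measured.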
